A study of Mus musculus with 9 samples.

Results

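The genes described here encode nuclear-encoded subunits of the oxidative phosphorylation system. They were chosen by symbol, as all entries that start with Nduf (other than Ndufaf), Uqcr, Cox4 to Cox8 or Atp5, or that read Sdha, Sdhb, Sdhc or Sdhd, which gave 86 of 18639 entries. Bulk RNA sequencing had been carried out on CT2A tumours, a mouse glioma line, taken from brains at day 5 after the tumour was resected. The ThTC group (3 libraries) had received cells that secrete IFNβ and GM-CSF, the GFP-TC group (3 libraries) control cells, and the third group (3 libraries) sECM only. Resection was common to all 3 groups. The labels give neither the strain, age and sex of the mice, nor the cells from which GFP-TC and ThTC were made, nor the meaning of sECM. Whether each library of a group stands for its own animal is not stated either, so a p-value here reflects only how far these libraries differ from each other. The series asks how the tumour transcriptome differs between the treatments, and the values are TPM, a transcript level divided by gene length and scaled to the same total in every library.

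Oxidative phosphorylation runs in the inner mitochondrial membrane. Complex I takes electrons from NADH and complex II from succinate, complex III passes them from ubiquinol to cytochrome c, and complex IV hands them to oxygen. The proton gradient that complexes I, III and IV build drives complex V, the ATP synthase. A few core subunits are encoded in mitochondrial DNA, and the files held 0 entries of those genes, so all subunits described here are made from nuclear genes, translated in the cytosol and imported. Brain tissue depends strongly on this system, and glioma cells carry it beside an active glycolysis.

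Several libraries stood apart. Summed TPM of 12 neuron markers was 349, 498 and 1910 in ThTC 1, 2 and 3, 252.5, 581 and 1623 in GFP-TC 1, 2 and 3, and 637, 426 and 443 in sECM only 1, 2 and 3, so ThTC 3 and GFP-TC 3 held the most transcripts of brain tissue. GFP-TC 1 had the lowest of these sums, the lowest macrophage and T cell marker sums (1002 and 8.04 TPM) and the highest choroid plexus marker sum (394.4 TPM). In GFP-TC 2 the level of transcripts depended on their length more than in any other library, with short transcripts low and long ones high, as described with the length classes. In bulk tissue, fewer cells of a type and less RNA per cell cannot be told apart. TPM keeps no depth, and the labels give only a total of 4.47 Gb sequenced for each sample.

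Of the 86 genes, 40 belong by symbol to complex I, 4 to complex II, 8 to complex III, 17 to complex IV and 17 to complex V. The complex III subunit gene Cyc1 does not match the chosen symbols and was counted with the electron carriers. Most were abundant: 65 averaged at least 100 TPM over the 9 libraries, 12 lay between 10 and 100 TPM, and 9 below 10 TPM. The median of the 83 genes that passed the filter of at least 1 TPM in at least 3 libraries was 178 TPM, against 22.5 TPM for all 13829 tested genes. Cox8a, a small structural subunit of complex IV, averaged 1344 TPM, Atp5b, the catalytic beta subunit of the ATP synthase, 1304 TPM, and Atp5d, the delta subunit of its central stalk, 651 TPM. Cox4i2 had the lowest mean of the tested genes, with 1.37 TPM.

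The 3 genes that did not pass the filter were Cox7b2, Cox8b and Ndufb4b. Ndufb4b was listed at 0 TPM in every library. Cox8b, the heart and skeletal muscle form of subunit 8 in the mouse, had 0.39 TPM in ThTC 3 and 1.84 TPM in GFP-TC 1 and was listed at 0 in the other libraries. Cox7b2 had 0.23 TPM in ThTC 3 and 0.25 TPM in GFP-TC 3, and 0 elsewhere. Exact two-sided permutation tests gave p = 1 for Cox7b2 and Cox8b in each of the 3 comparisons, and 3 libraries against 3 cannot give a p below 0.1.

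The levels varied little between libraries. For 75 of the 83 tested genes the highest library was less than 2 times the lowest, against 67.0% of all tested genes, and the median of this ratio was 1.45. The 86 genes together took 1.93, 2.03 and 2.15% of all TPM in ThTC 1, 2 and 3, 1.95, 1.54 and 1.82% in GFP-TC 1, 2 and 3, and 1.95, 1.93 and 1.77% in sECM only 1, 2 and 3. ThTC 3 had the highest share and GFP-TC 2 the lowest, while ThTC 1, GFP-TC 1 and the sECM only libraries 1 and 2 lay within a narrow band. The summed level was 20352 ± 1073 TPM in ThTC libraries, 17693 ± 2098 TPM in GFP-TC libraries and 18842 ± 1014 TPM in sECM only libraries (SD, n = 3 each).

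**Figure D1:**
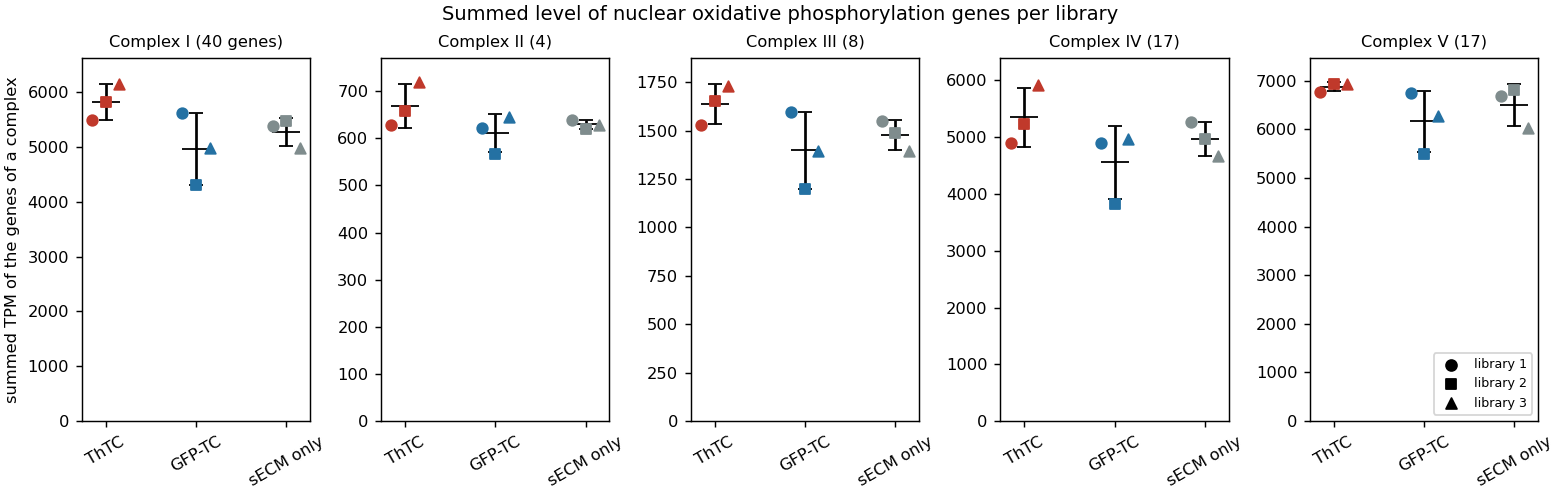
Summed TPM of the subunit genes of complexes I to V, a panel each, with a symbol for each of the 3 libraries of a group and lines for the group mean and its SD (ThTC left, then GFP-TC and sECM only). ThTC 3 is the highest and GFP-TC 2 the lowest point in every panel, and over all complexes they reach 21458 and 15375 TPM.

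By complex, the summed level of complex I genes was 5823 ± 328 TPM in ThTC tumours, 4963 ± 657 TPM in GFP-TC tumours and 5270 ± 261 TPM in sECM only tumours (SD, n = 3 each, as for the sums that follow). Complex IV genes summed to 5351 ± 525 TPM in ThTC tumours, 4560 ± 640 TPM in GFP-TC tumours and 4965 ± 303 TPM in sECM only tumours. Complex V genes summed to 6872 ± 93.1 TPM in ThTC tumours, 6161 ± 633 TPM in GFP-TC tumours and 6500 ± 425 TPM in sECM only tumours. The ThTC mean was the highest and the GFP-TC mean the lowest in each of these complexes. The SDs were of the same order as the gaps, apart from the smaller ThTC SD of complex V (93.1 TPM). Complex III genes summed to 1639 ± 102, 1398 ± 198 and 1478 ± 77.8 TPM and complex II genes to 668 ± 46.6, 611 ± 40.4 and 629 ± 9.44 TPM with ThTC, GFP-TC and sECM only, in the same order of means.

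The genes moved together across libraries. ThTC 3 was the highest of the 9 libraries for 46 of the 83 tested genes and ThTC 2 for 15. GFP-TC 2 was the lowest for 61 of them. In ThTC 3, 79 genes lay above their own mean over all libraries, and in GFP-TC 2 only 4 did. The median deviation from a gene's mean was 0.22 (log2) in ThTC 3 and -0.28 in GFP-TC 2, where all tested genes had medians of 0.03 and 0.14.

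**Figure D2:**
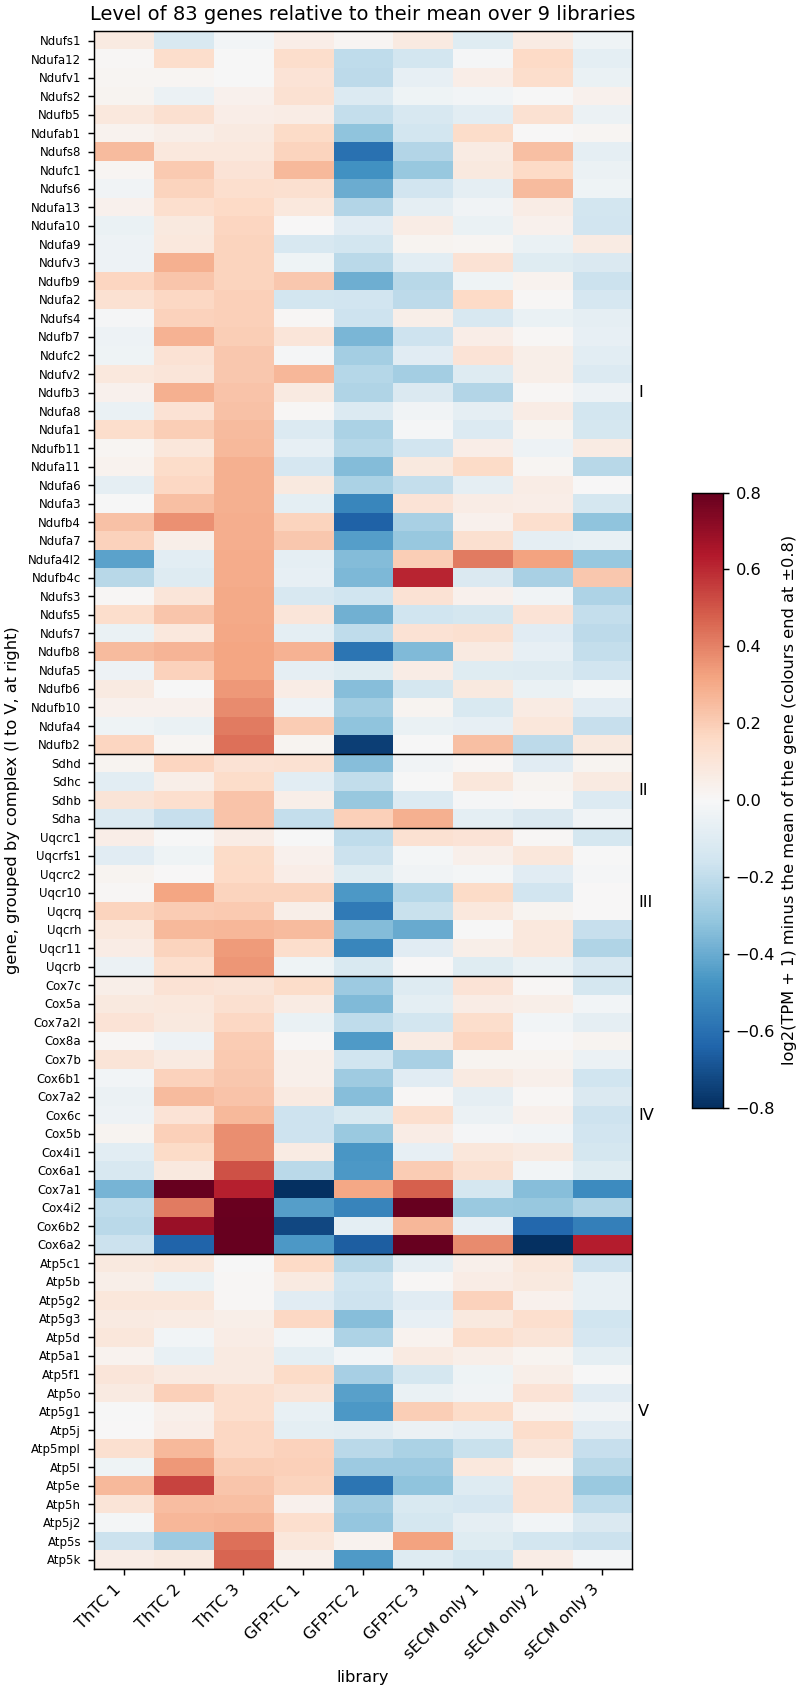
Deviation of each tested subunit gene from its own mean over the 9 libraries, log2(TPM + 1), with genes in rows grouped by complex and libraries in columns, ThTC to the left of GFP-TC and sECM only. The column of GFP-TC 2 is low for nearly all genes, with 4 of 83 above their mean, and that of ThTC 3 is high, with 79 of 83 above.

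Promoters of these genes are known to be bound by NRF1, by the ETS factor GABP and by YY1, which couple nuclear transcription to mitochondrial content. RefSeq promoter windows of GRCm38.p6 ran from 250 bases before to 50 bases after an annotated start and were searched on both strands. They were at hand for 70 of the 86 genes and for 27025 genes in all. Some genes, such as Ndufa7, had several windows. For some, such as Cox5a and Ndufs7, the annotated start was not the gene start. The NRF1 letters GCGCATGC were present in 10 of the 70 (14.3%), against 3.05% of all promoters and 5.64% of those of 10791 tested genes. The full NRF1 palindrome, which adds GC at the 3′ end of these letters and so overlaps them, was present in 5 (7.14%), against 1.07% and 2.17%. The YY1 motif was present in 5 (7.14%), against 0.995% and 2.19%. GABP letters, CCGGAAGT, were also present in 5 (7.14%), against 4.31% of all promoters and 8.43% of those of tested genes. The hypoxia response cores ACGTG and GCGTG were present in 18 (25.7%) and 37 (52.9%) of the 70 promoters, against 21.8% and 35.2% of all promoters, and 28.7% and 54.4% of those of tested genes. A match describes the letters in the window and does not show that a factor binds.

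The promoters of 4 genes that hold NRF1 or GABP letters are printed because the TPM of these genes in ThTC and GFP-TC libraries did not overlap. Those libraries overlapped for the other genes with NRF1 letters (Atp5l, Cox6a1, Ndufa6, Ndufa8, Ndufa11, Uqcr11 and Uqcrc1). The same held for the other genes with GABP letters (Cox8a, Ndufs3, Uqcr11 and Uqcrh). Among all 83 tested subunit genes, 16 (19.3%) lay higher with ThTC without overlap. A link between letters and level was not tested. Each line gives the 100 bases before the RefSeq gene start in GRCm38.p6, 5′ to 3′ on the strand of the gene, and capitals mark the NRF1 letters in Atp5k, Atp5g2 and Sdhb and the GABP letters in Atp5h. Sdhb and Atp5h carry the reverse complements GCATGCGC and ACTTCCGG. Atp5k lies on the minus strand of chr5:108434400-108434499, Atp5g2 on the minus strand of chr15:102671048-102671147, Sdhb on the plus strand of chr4:140961171-140961270 and Atp5h on the minus strand of chr11:115419920-115420019.
Atp5k: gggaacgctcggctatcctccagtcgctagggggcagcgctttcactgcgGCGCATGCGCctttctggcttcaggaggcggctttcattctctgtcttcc
Atp5g2: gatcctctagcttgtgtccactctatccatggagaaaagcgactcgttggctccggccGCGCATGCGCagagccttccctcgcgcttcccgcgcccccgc
Sdhb: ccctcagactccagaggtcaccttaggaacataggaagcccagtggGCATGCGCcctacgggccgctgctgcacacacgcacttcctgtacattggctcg
Atp5h: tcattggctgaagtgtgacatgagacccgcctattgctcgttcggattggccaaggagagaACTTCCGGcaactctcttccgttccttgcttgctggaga

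ThTC was first compared with GFP-TC, which sets the secreting cells against the control cells. Of the 83 tested genes, 79 (95.2%) had a higher mean log2 level with ThTC, against 33.8% of all tested genes. Their median log2 fold change on the log2(TPM + 1) scale was 0.24, where all tested genes had -0.10, and single genes lay between -0.15 and 0.77. None passed limma with Benjamini-Hochberg adjustment at 0.05, and 0% of all tested genes did. At an unadjusted limma p under 0.05, 16 genes (19.3%) were higher and 0 lower, where 2.03% of all tested genes were higher and 12.9% lower. The ThTC libraries all lay above the GFP-TC libraries for 16 genes (19.3%), against 2.2% of all tested genes, and for 0 genes did they all lie below, against 16.9%.

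Complex I contributed 37 of 39 tested genes with a higher mean in ThTC and a median log2 fold change of 0.24. Ndufa2, an accessory subunit of the matrix arm, had 104, 108 and 109 TPM in ThTC libraries, against 86.4, 86.1 and 82.8 TPM in GFP-TC libraries and 107, 96.4 and 87.0 TPM in sECM only libraries. The ThTC and GFP-TC libraries did not overlap, and sECM only spanned the gap between them. Its log2 fold change for ThTC against GFP-TC was 0.33 ± 0.08 (SE; limma adjusted p = 0.316), the smallest p of the set. Ndufa1, an X-linked accessory subunit of the membrane arm (chromosome X, 37187588 to 37191238, GRCm38.p6), had 86.4, 89.9 and 93.5 TPM in ThTC libraries, against 72.4, 65.5 and 77.7 TPM in GFP-TC libraries and 72.4, 79.2 and 70.95 TPM in sECM only libraries. All 3 ThTC libraries lay above the other 6. This gene gave 0.32 ± 0.09 against GFP-TC (limma adjusted p = 0.316).

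Ndufb11, a further X-linked accessory subunit of the membrane arm, had 196, 207 and 232 TPM in ThTC libraries, against 186, 166 and 175 TPM in GFP-TC libraries and 202, 189 and 203 TPM in sECM only libraries. ThTC lay above GFP-TC without overlap and overlapped sECM only (log2 fold change 0.27 ± 0.08 against GFP-TC, limma adjusted p = 0.316). Electron entry is carried out by other subunits of the matrix arm. Ndufv1, which binds NADH and FMN, had 178, 178 and 176 TPM in ThTC libraries, against 191, 152.5 and 169 TPM in GFP-TC libraries and 184, 195 and 170.4 TPM in sECM only libraries. Ndufs1, the largest iron-sulfur subunit, had 69.4, 60.4 and 64.85 TPM in ThTC libraries, against 68.3, 66.6 and 69.3 TPM in GFP-TC libraries and 61.6, 69.0 and 64.35 TPM in sECM only libraries. The groups overlapped for both genes, with log2 fold changes of 0.06 ± 0.09 and -0.07 ± 0.08 against GFP-TC (limma adjusted p = 0.79 and 0.707).

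Among the 4 complex II genes, Sdhb, the iron-sulfur subunit, had 202, 207 and 221 TPM in ThTC libraries, against 195, 153 and 175 TPM in GFP-TC libraries and 188, 190.2 and 175 TPM in sECM only libraries. All 3 ThTC libraries lay above the other 6 (0.27 ± 0.10 against GFP-TC, limma adjusted p = 0.316). Sdha, the flavoprotein that oxidises succinate, had 119.5, 113 and 151 TPM in ThTC libraries, against 113, 148 and 157 TPM in GFP-TC libraries and 122, 119 and 126 TPM in sECM only libraries. ThTC 3, GFP-TC 2 and GFP-TC 3 were high and the other libraries close together, so the groups overlapped (-0.12 ± 0.14 against GFP-TC, limma adjusted p = 0.743).

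All 8 complex III genes had a higher mean with ThTC than with GFP-TC, with a median log2 fold change of 0.27. Uqcrq, a small membrane subunit, had 127, 129 and 130.4 TPM in ThTC libraries, against 116, 75.6 and 99.3 TPM in GFP-TC libraries and 119, 114 and 112.5 TPM in sECM only libraries. All 3 ThTC libraries lay above the other 6, and GFP-TC 2 was the lowest of all (0.43 ± 0.14 against GFP-TC, limma adjusted p = 0.316). The Rieske iron-sulfur subunit Uqcrfs1 had 128, 133 and 152 TPM in ThTC libraries, against 140.25, 121 and 135 TPM in GFP-TC libraries and 140.4, 146 and 136 TPM in sECM only libraries. Its groups overlapped (0.06 ± 0.09 against GFP-TC, limma adjusted p = 0.795).

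All 15 tested complex IV genes had a higher mean with ThTC than with GFP-TC, with a median log2 fold change of 0.25. Cox7a2l, which joins complexes III and IV in supercomplexes, had 232, 228 and 242 TPM in ThTC libraries, against 208, 188 and 195 TPM in GFP-TC libraries and 238, 213 and 205 TPM in sECM only libraries. ThTC lay above GFP-TC without overlap and overlapped sECM only (0.25 ± 0.08 against GFP-TC, limma adjusted p = 0.316). Cox5b, a matrix-side structural subunit, had 382, 429.65 and 488 TPM in ThTC libraries, against 336, 306 and 393 TPM in GFP-TC libraries and 374, 372 and 339 TPM in sECM only libraries. The ranges of ThTC and GFP-TC overlapped through GFP-TC 3 (0.33 ± 0.12, limma adjusted p = 0.316). Cox5a, which sits beside it, had 388, 389 and 401 TPM in ThTC libraries, against 385, 288 and 347 TPM in GFP-TC libraries and 383, 379 and 362 TPM in sECM only libraries, so all ThTC libraries were highest by a margin of a few TPM (0.22 ± 0.10 against GFP-TC, limma adjusted p = 0.359). Cox8a had 1346, 1299 and 1537 TPM in ThTC libraries, against 1343, 974 and 1399 TPM in GFP-TC libraries and 1506, 1340.0 and 1355 TPM in sECM only libraries. These groups overlapped, with GFP-TC 2 alone below 1000 TPM (0.18 ± 0.15 against GFP-TC, limma adjusted p = 0.563).

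In complex V, 16 of 17 genes had a higher mean with ThTC than with GFP-TC, with a median log2 fold change of 0.17. The catalytic subunit Atp5b had 1346, 1255 and 1309.8 TPM in ThTC libraries, against 1371, 1163 and 1308 TPM in GFP-TC libraries and 1359, 1373 and 1248 TPM in sECM only libraries. The groups overlapped throughout (0.03 ± 0.10 against GFP-TC, limma adjusted p = 0.946). Atp5d had 690.3, 640.5 and 676 TPM in ThTC libraries, against 640.4, 547 and 663 TPM in GFP-TC libraries and 715, 699 and 593 TPM in sECM only libraries, again with overlap (0.12 ± 0.11, limma adjusted p = 0.602). Atp5h, the d subunit of the peripheral stalk, had 289, 320.1 and 318 TPM in ThTC libraries, against 276, 220.4 and 247 TPM in GFP-TC libraries and 245, 292 and 233 TPM in sECM only libraries. ThTC lay above GFP-TC without overlap, while sECM only 2 reached into the ThTC range (0.32 ± 0.11 against GFP-TC, limma adjusted p = 0.316). In GENCODE M21 transcripts, 36.9% of the 50-base words of Atp5h also occur in other genes.

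Atp5e and Ndufb4 fall outside the rule for named genes and were picked after their values were seen, because their fold changes led complexes V and I. Atp5e, the small epsilon subunit of the central stalk, had 284, 346 and 277 TPM in ThTC libraries, against 268.5, 158 and 189.9 TPM in GFP-TC libraries and 221, 257 and 193 TPM in sECM only libraries. All 3 ThTC libraries lay above the other 6, the nearest being GFP-TC 1 (0.58 ± 0.20 against GFP-TC, limma adjusted p = 0.316). Ndufb4, an accessory subunit, had 162, 177 and 168 TPM in ThTC libraries, against 156, 87.2 and 114 TPM in GFP-TC libraries and 141, 151 and 109.5 TPM in sECM only libraries. The ThTC libraries were again highest (0.54 ± 0.20 against GFP-TC, limma adjusted p = 0.316). In GENCODE M21 transcripts, 37.0% of the 50-base words of Ndufb4 also occur in other genes, most often in Ndufb4c. Reads of Ndufb4 may thus have been split with Ndufb4c, which had a log2 fold change of -0.07 ± 0.26.

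The 4 genes with a lower mean in ThTC than in GFP-TC were Atp5s (-0.15 ± 0.20), Sdha, Ndufs1 and Ndufb4c, none with a limma p under 0.05. Atp5s, listed by RefSeq as Dmac2l, averaged 7.1 ± 2.31 TPM in ThTC tumours, 7.81 ± 0.962 TPM in GFP-TC tumours and 6.21 ± 0.203 TPM in sECM only tumours (SD, n = 3 each), a low level beside the other complex V genes.

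GFP-TC 2 weighed on the comparison. Without it, 72 of 83 genes had a higher mean with ThTC, the median log2 fold change was 0.15, and 5 genes had an unadjusted limma p under 0.05, where 1.27% of all tested genes were higher and 4.3% lower at that threshold. Atp5b, Ndufv1 and Atp5g1 then had log2 fold changes of -0.04, -0.01 and -0.02. Without ThTC 3 the median was 0.17, 74 genes had a higher mean and 7 passed at the unadjusted threshold (1.16% of all tested genes higher, 11% lower). Without ThTC 2, 10 passed (0.745% of all tested genes higher, 4.89% lower). Without GFP-TC 1, 44 passed (3.41% and 18.9%), and without ThTC 1, 29 passed (2.8% and 12.6%). All of these subunit genes were higher with ThTC. By library number, 40 of 83 genes were higher in ThTC 1 than in GFP-TC 1 (median difference -0.01), 79 in ThTC 2 than in GFP-TC 2 (0.41) and 77 in ThTC 3 than in GFP-TC 3 (0.26). The median difference was thus near 0 in the pair numbered 1 and above 0 in those numbered 2 and 3. What the library numbers stand for is not given in the labels.

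Scaling moved these values too. After median-of-ratios scaling of the TPM, which shifts the median over all tested genes up by 0.12 (log2), the median of the subunit genes was 0.37 and 35 of them had an unadjusted limma p under 0.05. Over all tested genes 774 were then higher and 515 lower at that threshold, against 281 higher and 1784 lower on the deposited scale. With a neuron marker score as a covariate the median was 0.24 and 32 genes passed, all higher, where 5.58% of all tested genes were higher and 19.2% lower. No subunit gene passed after adjustment under any alternative run.

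Transcript length moved with the result. The subunit transcripts are short, with a median of 737 nt for the 82 tested genes that have a length in GENCODE M21, against 2708 nt for all tested genes with a length (98.3%). Among the other tested genes, the median log2 fold change of ThTC against GFP-TC was 0.12 for transcripts under 1000 nt, 0.00 for 1000 to under 2000 nt, -0.13 for 2000 to under 4000 nt and -0.22 for 4000 nt or more. The subunit genes lay above the other genes of their class: 0.28 under 1000 nt, with 55 of 55 higher (Ndufa4l2 by a margin that rounds to 0.00), 0.16 at 1000 to under 2000 nt, with 19 of 20 higher, and 0.07 at 2000 to under 4000 nt, with 5 of 7 higher. In GFP-TC 2, the median deviation of the other genes was -0.15 in the shortest class and 0.24 in the longest. ThTC 2 showed the reverse, with 0.08 and -0.22. GFP-TC 3 (-0.06 and 0.20) and sECM only 3 (-0.05 and 0.13) went the way of GFP-TC 2. ThTC 1 (0.03 and -0.15) and GFP-TC 1 (0.05 and -0.10) went the way of ThTC 2. So did ThTC 3 (0.08 and 0.00), sECM only 1 (0.02 and -0.07) and sECM only 2 (0.02 and -0.08), less steeply.

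**Figure D3:**
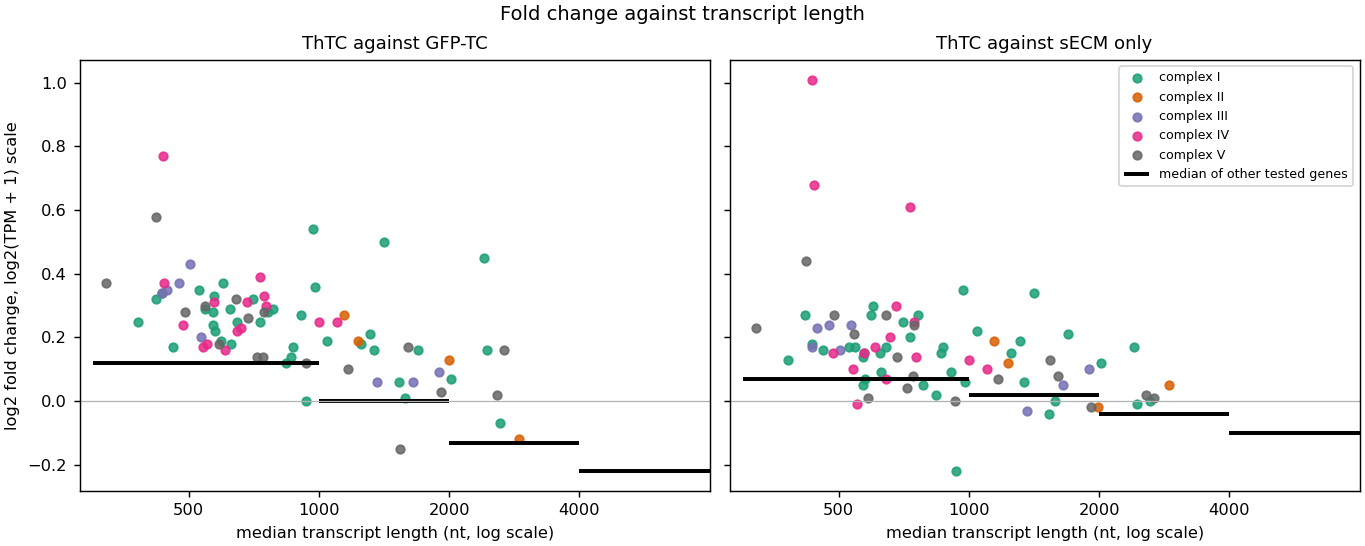
Log2 fold change (log2(TPM + 1) scale) of each subunit gene against its median transcript length (nt, log axis), coloured by complex, for ThTC against GFP-TC on the left and ThTC against sECM only on the right. Black lines give the median of the other tested genes in each length class, which is 0.12 for the shortest and -0.22 for the longest class on the left, with most subunit genes above their line.

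Once a smooth trend on length was taken out of each library, an alternative chosen after the data were seen, 77 of 82 genes still had a higher mean with ThTC than with GFP-TC. Their median log2 fold change was then 0.12, where all tested genes had 0.00. At an unadjusted limma p under 0.05, 9 subunit genes passed, the smallest adjusted p being 0.69, and over all tested genes 464 were higher and 498 lower. Ndufa4, Ndufs1 and Sdha had log2 fold changes of -0.04, 0.05 and 0.02 in that fit, the opposite sign to the fit without it. The part of RNA integrity or library preparation in the length trend was not tested.

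ThTC was next compared with sECM only. Of the 83 tested genes, 74 (89.2%) had a higher mean log2 level with ThTC, against 44.4% of all tested genes, and the median log2 fold change was 0.15, against -0.03. None passed limma with Benjamini-Hochberg adjustment, and 0% of all tested genes did. At an unadjusted limma p under 0.05, 6 genes (7.23%) were higher and 0 lower, against 1.54% and 5.36% of all tested genes. All ThTC libraries lay above all sECM only libraries for 22 genes (26.5%), against 5.03% of all tested genes, and below for 0, against 12.1%. The median was 0.15 in complexes I and IV, 0.16 in complex III, 0.09 in complex II and 0.08 in complex V.

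Ndufa1 had the smallest p in this comparison, with a log2 fold change of 0.27 ± 0.09 (SE; limma adjusted p = 0.687). Ndufa5, an accessory subunit of the matrix arm, had 75.5, 88.3 and 96.8 TPM in ThTC libraries, against 73.6, 72.3 and 80.9 TPM in GFP-TC libraries and 72.3, 72.1 and 69.65 TPM in sECM only libraries. All ThTC libraries lay above those of sECM only, and ThTC 3 was highest (0.27 ± 0.10 against sECM only, limma adjusted p = 0.687). Ndufb3, a membrane arm subunit, had 64.2, 76.7 and 73.65 TPM in ThTC libraries, against 65.9, 52.8 and 57.8 TPM in GFP-TC libraries and 53.2, 63.1 and 60.8 TPM in sECM only libraries. ThTC lay above sECM only without overlap, and GFP-TC 1 reached into the ThTC range (0.27 ± 0.11 against sECM only, limma adjusted p = 0.687). Atp5h gave 0.27 ± 0.11 with overlapping libraries (limma adjusted p = 0.687). Uqcrb, a complex III subunit at the ubiquinone site and the sixth gene under 0.05, was named after its values were seen. It gave 0.24 ± 0.10 (limma adjusted p = 0.687), and 43.2% of its 50-base words occur in other genes.

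ThTC 3 carried part of this comparison. Without ThTC 3, 66 genes had a higher mean, the median log2 fold change was 0.09 and 1 gene had an unadjusted limma p under 0.05, where 0.701% of all tested genes were higher and 3.12% lower. That count was also 1 without ThTC 2 (0.521% of all tested genes higher, 1.88% lower) or sECM only 3 (1.05% and 1.8%). It was 13 without ThTC 1 (3.46% and 8.06%) and 15 without GFP-TC 1 (4.03% and 6.3%), all of them higher with ThTC. ThTC 3 is the library with the highest neuron marker sum, 1910 TPM, and all 12 neuron markers had a higher mean with ThTC than with sECM only (median log2 fold change 0.40). Without ThTC 3, 0 of the 12 neuron markers did (-0.50). With the neuron score as a covariate the median of the subunit genes was 0.13 and 10 passed at that threshold, where 4.09% of all tested genes were higher and 7.54% lower. After the length correction the median was 0.07, with 64 of 82 genes higher.

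GFP-TC and sECM only were then compared, which asks how tissue given the control cells differed from tissue given sECM only. Of the 83 tested genes, 16 (19.3%) had a higher mean log2 level with GFP-TC, against 71.8% of all tested genes, and the median log2 fold change was -0.09, against 0.08. None passed limma with adjustment, and 0% of all tested genes did. At an unadjusted limma p under 0.05, 0 genes were higher and 0 lower, against 0.499% and 0.434% of all tested genes. All GFP-TC libraries lay above all sECM only libraries for Ndufa5 and Atp5s (2.41%, against 3.15% of all tested genes) and below for Atp5g2, Ndufa2, Ndufb11 and Sdhc (4.82%, against 1.08%). These counts are small, and the first is near the share over all tested genes.

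Ndufa2 had the smallest limma p here (log2 fold change -0.18 ± 0.08, adjusted p = 0.997), followed by Ndufb11 (-0.17 ± 0.08). Atp5g2 had 573, 544 and 573 TPM in GFP-TC libraries, against 693, 624 and 584 TPM in sECM only libraries, close together in GFP-TC and spread in sECM only (-0.17 ± 0.08, limma adjusted p = 0.997). Uqcrq gave -0.27 ± 0.14 and Cox7a2l -0.15 ± 0.08, with overlapping libraries and limma adjusted p = 0.997 each. The direction of the set rested on GFP-TC 2. Without that library 46 of 83 genes had a higher mean with GFP-TC and the median was 0.01. Without GFP-TC 1 the median was -0.16 and 18 genes had an unadjusted limma p under 0.05, 1 higher and 17 lower with GFP-TC, where 7.06% of all tested genes were higher and 2.44% lower. The 3 comparisons share libraries pairwise, so they are not independent of each other.

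Several complex IV subunits exist as pairs, of which the second form is known from particular tissues. In these tumours the common form prevailed everywhere. Cox4i2, known from lung and as hypoxia-responsive, amounted to 0.197, 0.352 and 0.439% of Cox4i1 TPM in ThTC libraries, 0.122, 0.149 and 0.606% in GFP-TC libraries and 0.152, 0.152 and 0.194% in sECM only libraries. ThTC lay above sECM only without overlap, and GFP-TC 3 was the highest of all. Cox7a1, the heart and skeletal muscle form, amounted to 0.931, 2.38 and 2.08% of Cox7a2 TPM in ThTC libraries, 0.444, 2.32 and 2.12% in GFP-TC libraries and 1.23, 0.929 and 0.831% in sECM only libraries. The libraries numbered 2 and 3 of ThTC and GFP-TC were high, and those numbered 1 and all of sECM only were low.

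Cox6b2, known from testis, had the largest fold changes of the set in both comparisons with ThTC, at low level. It had 2.68, 5.88 and 9.57 TPM in ThTC libraries, against 1.58, 3.04 and 4.14 TPM in GFP-TC libraries and 3.08, 1.76 and 1.92 TPM in sECM only libraries. ThTC 3 was highest, and ThTC 1 lay within the range of the other groups. The log2 fold change was 0.77 against GFP-TC and 1.01 ± 0.41 against sECM only (limma adjusted p = 0.687 for the second). Cox6a2, the heart and skeletal muscle form of subunit 6A, had 4.35, 2.87 and 15.2 TPM in ThTC libraries, against 3.39, 2.81 and 9.54 TPM in GFP-TC libraries and 6.85, 1.44 and 8.3 TPM in sECM only libraries. The libraries numbered 3 were the highest of each group (0.31 ± 0.69 against GFP-TC, limma adjusted p = 0.893), and without ThTC 3 the log2 fold change was -0.30.

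The common forms Cox4i1, Cox6a1, Cox6b1 and Cox7a2 gave 0.30 ± 0.16, 0.31 ± 0.20, 0.24 ± 0.11 and 0.23 ± 0.13 for ThTC against GFP-TC, with overlapping libraries and limma adjusted p between 0.356 and 0.473. Ndufa4 and Ndufa4l2 carry complex I symbols, although biochemical work places Ndufa4 in complex IV. Ndufa4l2, the hypoxia-induced form, amounted to 0.831, 1.18 and 1.19% of Ndufa4 TPM in ThTC libraries, 0.999, 1.1 and 1.51% in GFP-TC libraries and 1.85, 1.52 and 1.05% in sECM only libraries, with overlap between all groups. Its log2 fold change was 0.00 ± 0.28 for ThTC against GFP-TC and -0.22 ± 0.28 for either group of cells against sECM only (limma adjusted p between 0.85 and 0.999).

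**Figure D4:**
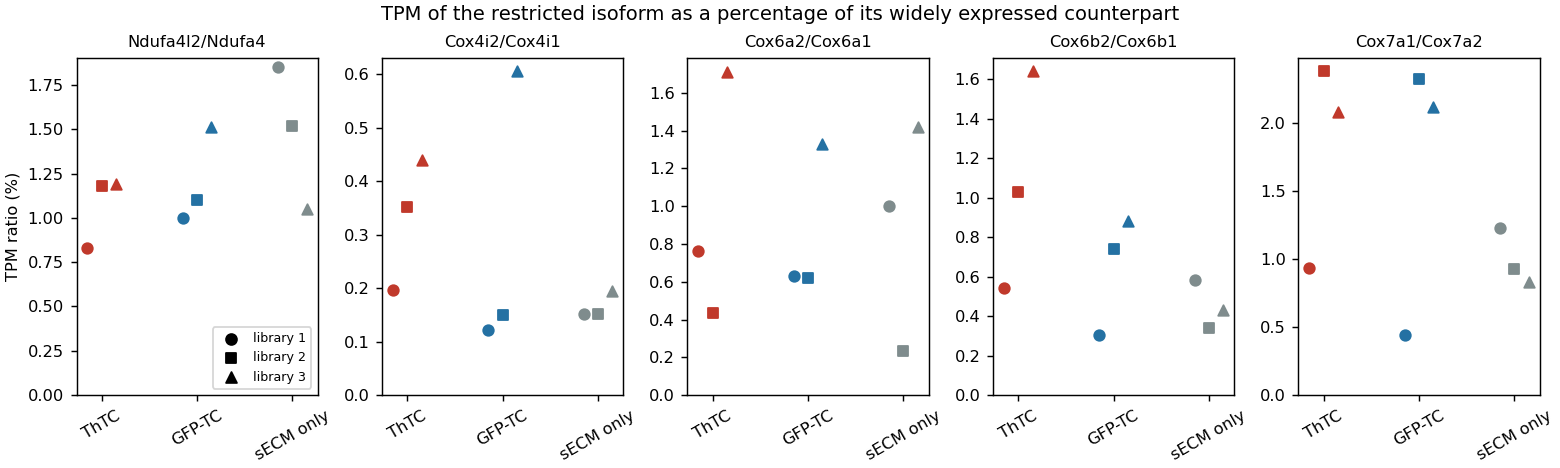
TPM of the second subunit form as a percentage of the common form in each library (ThTC left, then GFP-TC and sECM only), for the pairs Ndufa4l2, Cox4i2, Cox6a2, Cox6b2 and Cox7a1. All points lie under 2.5%, the highest being Cox7a1 in ThTC 2 with 2.38%.

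Atp5g1, Atp5g2 and Atp5g3 encode the same mature c subunit of the ATP synthase ring behind different import peptides. Atp5g2 made up 46.6, 46.3 and 44.4% of their summed TPM in ThTC libraries, 43.0, 49.7 and 43.1% in GFP-TC libraries and 47.0, 44.8 and 46.3% in sECM only libraries. Atp5g3 ranged from 28.1 to 33.3% and Atp5g1 from 21.8 to 28.4% over the 9 libraries, so the order Atp5g2, Atp5g3, Atp5g1 held in all but GFP-TC 3, where Atp5g1 and Atp5g3 had 28.4% each. For ThTC against GFP-TC, Atp5g2 did not overlap (0.18 ± 0.08, limma adjusted p = 0.352), whereas Atp5g1 and Atp5g3 did. In GENCODE M21 transcripts 38.3% of the 50-base words of Atp5g2 occur in other genes, which limits how reads could be assigned.

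Other genes of the pathway were counted in the same way. Over all tested genes, 33.8% had a higher mean with ThTC than with GFP-TC, with a median log2 fold change of -0.10. Of 47 assembly factors, which insert subunits and cofactors, 27 had a higher mean with ThTC than with GFP-TC (median log2 fold change 0.05). Cox16, needed to assemble complex IV, averaged 23.8 ± 2.81 TPM in ThTC tumours, 16.9 ± 2.26 TPM in GFP-TC tumours and 18.5 ± 1.49 TPM in sECM only tumours (SD, n = 3 each; ThTC above GFP-TC without overlap, limma adjusted p = 0.316), and was named after its values were seen. Of 78 genes of the mitochondrial ribosome, which translates the subunits encoded in mitochondrial DNA, 55 had a higher mean (0.08), and of 9 coenzyme Q synthesis genes 5 did (0.06). Among 8 electron carriers and dehydrogenases that feed them 5 had a higher mean (0.08), with Cycs, cytochrome c, at 78.7 ± 3.05 TPM in ThTC tumours and 74.7 ± 8.67 TPM in GFP-TC tumours. The 16 genes of the TCA cycle, which supplies NADH and succinate, had 5 (-0.02). The signs of these small medians were not stable: the assembly factors gave -0.02 without GFP-TC 2 and -0.04 without ThTC 3, coenzyme Q synthesis -0.02 without GFP-TC 2, and the TCA cycle 0.01 without ThTC 2 and 0.03 without GFP-TC 3. Medians of this size are no larger than the shift of 0.12 that median-of-ratios scaling gives over all tested genes. No gene of these lists passed adjusted limma in any comparison.

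Regulators of mitochondrial biogenesis had mostly lower means. Only Tfb1m of 12 had a higher mean with ThTC than with GFP-TC, and the median was -0.25, with 4 of them lower at an unadjusted limma p under 0.05 (adjusted p at least 0.316). Of all tested genes, 33.8% had a higher mean and 12.9% were lower at that threshold. These regulator values come from the fit without the length correction, and their median after it was not taken. Genes outside the subunit set had medians of -0.13 at 2000 to under 4000 nt and -0.22 at 4000 nt or more. The part of length in the regulator median was not tested. Without ThTC 2 the median of the regulators was -0.15. Nrf1, the factor whose letters were searched in the promoters, averaged 29.2 ± 1.42 TPM in ThTC tumours, 36.3 ± 5.74 TPM in GFP-TC tumours and 34.4 ± 1.98 TPM in sECM only tumours (SD, n = 3 each). Yy1 averaged 83.9 ± 8.15 TPM in ThTC tumours and 100.4 ± 10.9 TPM in GFP-TC tumours. Ppargc1a, the coactivator PGC-1α, was low in all groups, with 2.46 ± 1.66 TPM in ThTC tumours and 3.28 ± 0.944 TPM in GFP-TC tumours. Atpif1, the inhibitor of reverse ATP synthase activity, averaged 110.1 ± 2.12 TPM in ThTC tumours and 98.1 ± 24.9 TPM in GFP-TC tumours. Against sECM only, ThTC had a higher mean for 33 of 47 assembly factors (0.07), 52 of 78 mitochondrial ribosome genes (0.06), 8 of 16 TCA cycle genes (0.00) and 2 of 12 regulators (-0.16). Over all tested genes, 44.4% had a higher mean in that comparison (-0.03).

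**Figure D5:**
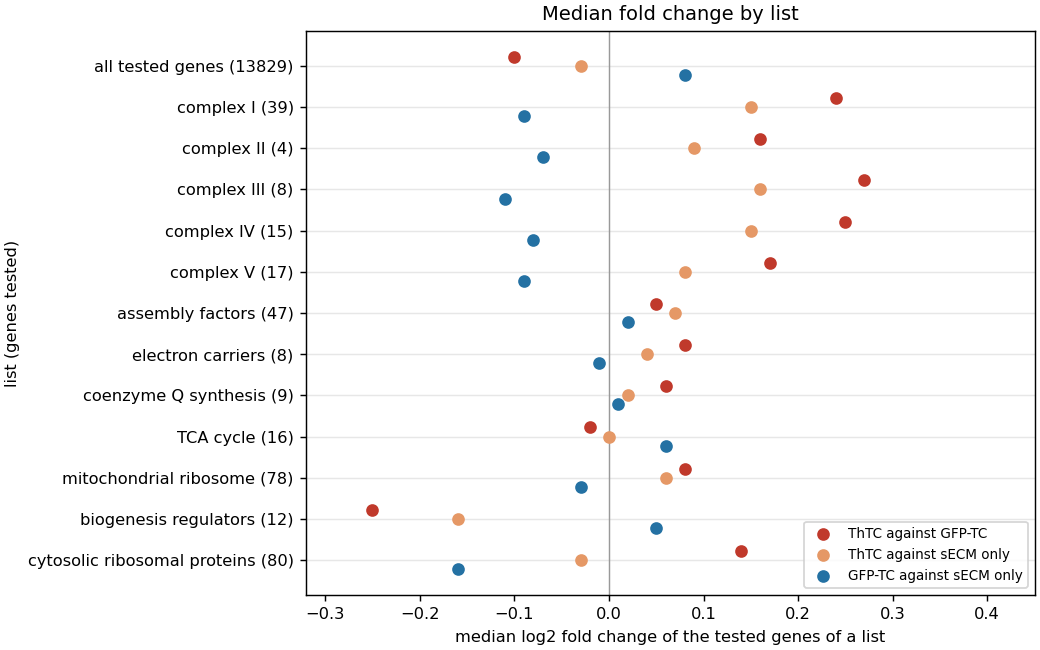
Median log2 fold change over the tested genes of each list, with the number tested in brackets, in the 3 comparisons. For ThTC against GFP-TC the 5 complexes lie between 0.16 and 0.27, the plotted related lists other than the regulators between -0.02 and 0.08, the regulators at -0.25 and all tested genes at -0.10.

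Cytosolic ribosomal proteins, a list of other short and abundant transcripts added after the data were seen, had a higher mean with ThTC than with GFP-TC for 73 of 80 tested genes (median log2 fold change 0.14). With ThTC against sECM only 36 of 80 did (-0.03), and with GFP-TC against sECM only 3 of 80 did (-0.16). Over all tested genes the shares with a higher mean were 33.8, 44.4 and 71.8% in these comparisons.

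Markers of other cell types were summed and counted too, and none of their genes passed adjusted limma in any comparison. All 10 macrophage markers and all 8 T cell markers had a higher mean with ThTC than with GFP-TC (median log2 fold changes 0.54 and 1.11). Of all tested genes, 33.8% did (-0.10). Macrophage marker sums were 2193 to 3552 TPM in ThTC libraries, 1002 to 2290 TPM in GFP-TC libraries and 1720 to 2106 TPM in sECM only libraries. T cell marker sums were 90.8 to 103 TPM, 8.04 to 80.9 TPM and 26.2 to 87.4 TPM in those groups, with none of either list at 0 in any library. GFP-TC 1 held the lowest value of both sums. Without it 8 of 10 macrophage markers and 8 of 8 T cell markers had a higher mean with ThTC than with GFP-TC, with medians of 0.13 and 0.41. Of 12 neuron markers 7 had a higher mean with ThTC than with GFP-TC (0.08), and of 10 hypoxia-induced genes 6 did (0.05). Both results depended on single libraries. The neuron markers gave 0 of 12 (-0.81) without ThTC 3, 1 of 12 (-0.76) without GFP-TC 1 and 12 of 12 (0.87) without GFP-TC 3. The hypoxia-induced genes gave 8 of 10 (0.13) without ThTC 3 and 1 of 10 (-0.20) without GFP-TC 3. Red cell markers had a lower mean with ThTC for all 5 (-1.15), at 147 to 524 TPM in ThTC libraries and 186 to 1206 TPM in GFP-TC libraries. That median was -0.67 without ThTC 1, -0.65 without GFP-TC 2 and -1.95 without GFP-TC 3. Muscle is a source of the tissue-bound forms. The 11 skeletal muscle markers, Pvalb among them, summed to 6.51 to 57.1 TPM with ThTC, 9.26 to 25.3 TPM with GFP-TC and 14.1 to 21.1 TPM with sECM only. Ckm, Myh1, Myh2, Myh4 and Tnnc2 were at 0 in at least 1 library. In each group this sum was highest in the library with the highest neuron marker sum (ThTC 3, GFP-TC 3 and sECM only 1). Whether it stands for muscle was not tested. The 6 heart muscle markers summed to 34.8 to 51.3 TPM with ThTC, 41.5 to 85.7 TPM with GFP-TC and 64.1 to 69.2 TPM with sECM only, with Myh6, Myl2, Actc1 and Nppa at 0 in at least 1 library and most of the sum from Tnnt2. Pericyte markers, which mark the cells that carry Cox4i2 and Ndufa4l2 in mouse brain, summed to 111 to 196 TPM with ThTC, 137.5 to 204 TPM with GFP-TC and 153 to 167 TPM with sECM only. The part of these cells in the levels of the subunit genes was not tested, apart from the neuron covariate given above.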

How the data were processed

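The deposited files gave 1 TPM value per gene and library, per the file headers. The submitters' processing notes name HISAT and the builds GRCm38.p6 and mm10 without versions, and the quantification tool and annotation are not given in the sources used here. RNA (2 µg) was sequenced on a DNBseq platform at 4.47 Gb of bases per sample, per the labels' protocols. Groups came from the treatment label, 3 libraries each.

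Levels were analysed as log2(TPM + 1), a pseudocount that understates the change of low genes. Genes with at least 1 TPM in at least 3 libraries entered a fit of all 9 libraries (limma 3.58.1, R 4.3.3, intensity trend), with Benjamini-Hochberg adjustment over all 13829 tested genes at 0.05, and the steps were tested on simulated data. TPM carries no depth, so no counting interval is given. Libraries of a group held different values, with at most 0.419% of tested genes equal in any pair. Transcript lengths and shared 50-base words came from GENCODE M21, and names, positions and promoters from RefSeq (86 of 86 genes matched). Python 3.11.15, scipy 1.17.1 and matplotlib 3.10.9 served for permutation tests and figures.

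The genes, lists and tests were chosen with earlier results of these data known. The text names, per comparison, the 5 tested members with the smallest limma p, since none was called, together with listed isoform pairs, catalytic subunits and the 3 most abundant members. Other genes named by value were picked after their values were seen. Deviations of same-numbered ThTC and GFP-TC libraries correlated at 0.743, 0.124 and 0.874 over tested genes, each over the 0.1 set for pairing. Such correlations cannot show that the numbers pair libraries, since ThTC 3 and GFP-TC 3 also shared the highest neuron marker sums. Correlations with sECM only ran from -0.548 to 0.282, so not all passed that threshold. The reported fits carry no block, and the replicate block is an alternative. Alternatives covered the pseudocount, filters, scaling, the libraries fitted, the replicate block, the trend, a neuron covariate, length and leaving out each library. Leaving out libraries for the related lists and markers was added after the data were seen.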

Additional observations from a re-analysis of the deposited data

How the results depend on the processing

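The count of subunit genes called after adjustment was 0 in each comparison under all 21 alternatives. Leaving out each library in turn, the median log2 fold change ran from 0.15 to 0.29 for ThTC against GFP-TC, from 0.09 to 0.19 for ThTC against sECM only and from -0.16 to 0.01 for GFP-TC against sECM only, and the genes with an unadjusted limma p under 0.05 numbered 5 to 44, 1 to 15 and 0 to 18 (1 higher and 17 lower at most for the last, all higher for the others). For ThTC against GFP-TC, median-of-ratios scaling gave a median of 0.37 and 35 genes (5.6% of all tested genes higher), the neuron covariate 32 genes (5.58%), the length correction 0.12 and 9 genes (3.41%), the length correction with the replicate block 0.12 and 8 genes (3.94%), and the block without GFP-TC 2 gave 5 genes (1.91%). The replicate block with the pairing by number gave 17 genes with 9 libraries (2.34%) and 23 with 6 (5.81%), and changed no call of a subunit gene. For ThTC against sECM only, the count of 6 became 16 with the 6 compared libraries alone (3.66%), 3 with the replicate block over 9 libraries (2.09%), 3 without the intensity trend (1.54%), 10 with the neuron covariate (4.09%), 2 with the length correction (2.33%) and 1 with that correction and the block (2.86%). For GFP-TC against sECM only, the count of 0 became 1 without the filter (0.592% of all tested genes lower), 2 with median-of-ratios scaling (0.774%), and 1 with the length correction, without (0.603%) or with (0.75%) the block, all lower. Of 40 log2 fold changes of named genes, 30 never changed sign, counting Ndufa4l2 for ThTC against GFP-TC, whose 0.00 has no sign to change. The others, all for ThTC against GFP-TC, were Ndufs1 (0.06) and Sdha (0.02) with median-of-ratios scaling, Ndufa4 (-0.04), Ndufs1 (0.05) and Sdha (0.02) with the length correction, with and without the block, Cox6a2 (-0.30) and Uqcrfs1 (-0.01) without ThTC 3, Cox7a1 (-0.04) without GFP-TC 1, Atp5g1 (-0.02), Ndufv1 (-0.01) and Atp5b (-0.04) without GFP-TC 2 (the highest values with a library left out being 0.76, 0.11, 0.74, 0.32, 0.15 and 0.08 in that order), and Atp5g1 (-0.01), Atp5g3 (-0.02), Ndufv1 (-0.04) and Atp5b (-0.04) with the block and without GFP-TC 2. The cause was not tested. TPM has no depth, so the precision of low genes such as Cox4i2 cannot be given.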
